A study of Mus musculus with 6 samples.

Results

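The 46 genes described here encode proteins of the lysosomal membrane, lysosomal hydrolases other than cathepsins, subunits of the proton pump known as the V-ATPase, and the transcription factors of the TFEB family. They were taken by gene symbol from the 54752 genes of a count table of RNA-seq in the mouse fibroblast line NIH/3T3, which was derived from embryos, and all 46 were found in it. Treatments lasted 72 h and were compared in 3 groups of 2 libraries each. One group received vehicle, which the labels give as PBS. The second received TGF-β1 (the cytokine that turns fibroblasts into myofibroblasts) at 1 ng/ml with DMSO, and the third received TGF-β1 at 1 ng/ml with BI6727, an inhibitor of the mitotic kinase PLK1, at 5 μM. All cells were of a single line, and no library held DMSO without TGF-β1, so effects of DMSO and of TGF-β1 cannot be told apart in the comparisons with vehicle. Nothing in the labels says that the replicates came from separate cultures, so p-values measure the spread between these libraries, which may be technical. In bulk RNA, fewer cells making a transcript and less of it per cell also cannot be told apart.

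The lysosome breaks down macromolecules at acid pH. Its membrane proteins protect and shape the organelle, transporters and channels export the products of digestion, and soluble hydrolases, most of them delivered through the mannose 6-phosphate pathway, cut glycans, sulfated glycosaminoglycans, lipids and proteins. The V-ATPase acidifies the lumen: its V1 sector hydrolyses ATP in the cytosol and its V0 sector carries protons across the membrane. TFEB, TFE3 and MITF are basic helix-loop-helix factors that enter the nucleus when the kinase mTORC1 is inactive at the lysosome, and they bind an E-box within the CLEAR element of many lysosomal genes. Loss of a single hydrolase or transporter causes a lysosomal storage disease in humans, which is how many of these genes were found.

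Because that E-box is the sequence shared by targets of the TFEB family, the promoters of the 46 genes were read first. RefSeq promoter windows (GRCm38.p6, 250 bases before to 50 after the annotated start) matched 40 of the 46 genes by symbol, in 49 windows. The core letters CACGTG, searched on both strands (they read the same on each), were present in 12 of the 49 windows, which is 24.5%, and in 7.15% of all 32851 windows. The longer TCACGTG, which contains the core and was also searched on both strands, was present in the same 12 windows and in 3.77% of all windows. Each window with the core belonged to a different gene: Lamp1, Mcoln1, Cln3, Gaa, Gla, Glb1, Naglu, Sgsh, Arsa, Lgmn, Atp6v1a and Atp6v0d1. A match of letters is a description and not a binding site. The stretches below, 5′ to 3′ on the strand of the gene with the core in capitals, are those of the 4 matched genes that passed a test against vehicle later on (Mcoln1, Atp6v1a, Atp6v0d1 and Sgsh) and of Lamp1, which held the most matches.
Mcoln1, chr8:3500438-3500463, plus strand: tcgcgcttgtCACGTGttcagttcag
Mcoln1, chr8:3500464-3500489, plus strand: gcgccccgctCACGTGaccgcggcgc
Atp6v1a, chr16:44139375-44139400, minus strand: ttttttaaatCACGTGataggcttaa
Atp6v0d1, chr8:105566052-105566077, minus strand: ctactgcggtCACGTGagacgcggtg
Sgsh, chr11:119355524-119355549, minus strand: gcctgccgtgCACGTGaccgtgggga
Lamp1, chr8:13159090-13159115, plus strand: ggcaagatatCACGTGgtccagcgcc
Lamp1, chr8:13159106-13159131, plus strand: gtccagcgccCACGTGatgccgactg
Lamp1, chr8:13159123-13159148, plus strand: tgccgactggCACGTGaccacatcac
Lamp1, chr8:13159136-13159161, plus strand: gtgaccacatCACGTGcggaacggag

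In 11 of the 12 genes the matches lay before the start, from 12 to 224 bases away, and in Atp6v0d1 the core lay across the start itself. Lamp1 held 4 matches within 58 bases of its start, and Mcoln1, Cln3 and Gla held 2 each.

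**Figure D1:**
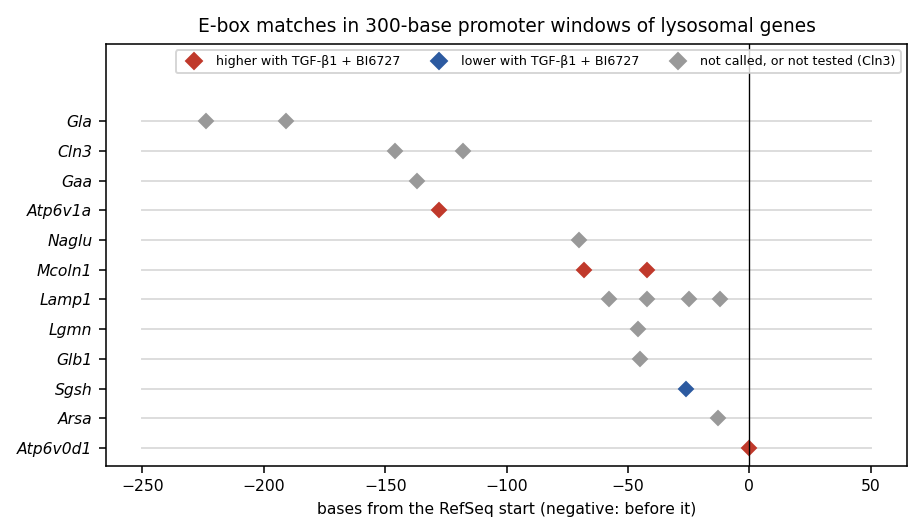
Position of each match to the core E-box letters in the promoter windows of the 12 genes that held one. The horizontal axis is the distance in bases of the middle of the match from the RefSeq start (vertical line), grey lines span the 300-base window, and colour marks genes called at an adjusted p-value below 0.05 with TGF-β1 and BI6727 against vehicle. Of the 12 genes, Atp6v1a, Mcoln1 and Atp6v0d1 were higher, Sgsh was lower, and Cln3 was below the filter on low counts and was not tested.

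The promoter of Neu1, the gene with the largest change among those tested below, held no CACGTG. The 250 bases before its start are shown for comparison with those above, with no capitals because none of the letters searched occurs in them.
Neu1, chr17:34931003-34931252, plus strand: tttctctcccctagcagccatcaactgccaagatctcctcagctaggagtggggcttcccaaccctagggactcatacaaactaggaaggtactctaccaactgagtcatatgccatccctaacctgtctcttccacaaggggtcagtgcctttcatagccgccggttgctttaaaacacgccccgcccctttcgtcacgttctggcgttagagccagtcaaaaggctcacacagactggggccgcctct

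Libraries held 18362378 to 24452153 counts on genes, and the 46 genes took 0.861% to 1.05% of them. Levels are given as normalized CPM, the share of the TMM-scaled library total that CPM expresses. The labelled cell type was checked against marker lists. Collagens, vimentin and fibronectin were high, and the 10 fibroblast markers summed to 8112 to 10783 normalized CPM. The most abundant of them gave 4014 to 5126 of this. Of the 10, 9 passed the filter on low counts, and Lum did not. The 9 macrophage markers summed to 19.7 to 25.2 normalized CPM, mostly from Cd14. Adgre1 and Tyrobp were at 0 in all 6 libraries, whereas others, such as Csf1r and Aif1, were detected at low levels. The sums for 6 epithelial and 5 endothelial markers were at most 0.612 and 3.77 normalized CPM. The DMSO libraries stood apart from each other. The SD of the log2 difference between replicates was 0.377 over all genes with DMSO, 0.163 in vehicle and 0.147 with BI6727. Over the lysosomal genes these SDs were 0.232, 0.106 and 0.112. Of the 40 lysosomal genes tested, 30 were lower in DMSO replicate 2 than in replicate 1, by a ratio of up to 1.52, so comparisons that rest on these libraries are also given without each of them.

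The test was limited to genes that reached 10 CPM in more than 3 libraries, which kept 9518 genes and 40 of the 46. Cln3, Idua, Manba, Gm2a, Tfeb and Mitf did not pass. They were tested in a second fit of 14604 genes kept by edgeR's filterByExpr, and this is said wherever such a value is given. Per kilobase of exon in the vehicle libraries, levels ran from 781 normalized CPM per kb for Psap to 0.0974 for Manba, with a median of 19.2. Psap encodes the precursor of the saposins, which help hydrolases reach their lipid substrates. It was followed by Lamp1 at 376, Cd63 at 144, Npc2 at 124 and the V-ATPase accessory subunit Atp6ap1 at 113 normalized CPM per kb. At the low end stood Idua at 1.67 and Cln3 at 0.808 normalized CPM per kb. Down this order, 20 of the 45 neighbouring pairs had overlapping vehicle libraries, so their order is not resolved.

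The first comparison, TGF-β1 with DMSO against vehicle, asks how the lysosomal genes change in cells given the cytokine. Neu1 rose, V-ATPase genes mostly rose, and several sulfatases and lipid hydrolases fell. By the study's rule, a fold change above 2 with a Benjamini-Hochberg adjusted p-value below 0.01, 1 of the 40 genes was called in edgeR's quasi-likelihood test, where 5.10% of all genes tested were. At an adjusted p-value below 0.05 with no minimum fold, 7 were higher and 7 lower, which is 35% of the 40, where 23.0% of all genes were called, 11.0% higher and 12.0% lower. The median log2 fold change of the 40 genes was 0.12, and that of all genes was -0.0045. The groups did not overlap in 32 of the 40 genes, or 80%, where this held for 62.9% of all genes.

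The second comparison, TGF-β1 with BI6727 against vehicle, shares its vehicle libraries with the first, so their results are not independent and are given side by side. By the study's rule 1 gene was again called, where 5.31% of all genes were. At an adjusted p-value below 0.05, 10 were higher and 8 lower, which is 45% of the 40, where 24.5% of all genes were called, 11.3% higher and 13.2% lower. Against vehicle, 1 of the 40 was called only with DMSO and 5 only with BI6727. Such a gene need not differ between BI6727 and DMSO, where 0 of the 40 and 0% of all genes were called. The median log2 fold change was 0.086 for the 40 genes and 0.0029 for all genes, and the groups did not overlap in 35 genes (87.5%), against 76.8% of all. Summed over the 46 genes, the level was 8934 and 8670 normalized CPM in vehicle, 9931 and 9848 with DMSO, and 10510 and 10650 with BI6727.

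These counts depend on single libraries, because each group has only 2. Without vehicle replicate 1 or without vehicle replicate 2, only Neu1 stayed higher at an adjusted p-value below 0.05 in either comparison, and the one gene lower was Ids, with BI6727 and without vehicle replicate 2. In these fits 5.40% and 7.02% of all genes were called with DMSO, and 6.49% and 7.74% with BI6727. Leaving out DMSO replicate 1 gave 10 higher and 13 lower with DMSO, where 59.6% of all genes were called, so that the share of the 40 was no higher than that of all genes. Leaving out DMSO replicate 2 gave 17 higher and 9 lower, where 38.7% of all genes were called. Leaving out either BI6727 replicate gave 2 higher and 3 lower with DMSO against vehicle, again no higher a share than the 13.2% and 13.1% of all genes. With BI6727 against vehicle, leaving out either DMSO replicate gave 16 higher, with 11 lower without replicate 1 and 10 lower without replicate 2, where 54.0% and 54.1% of all genes were called. In that comparison Neu1 alone was higher without BI6727 replicate 1 or 2, and Ids alone was lower without replicate 2, where 7.05% and 7.70% of all genes were called. In each such fit the lone library is assumed to vary like those of the other groups.

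**Figure D2:**
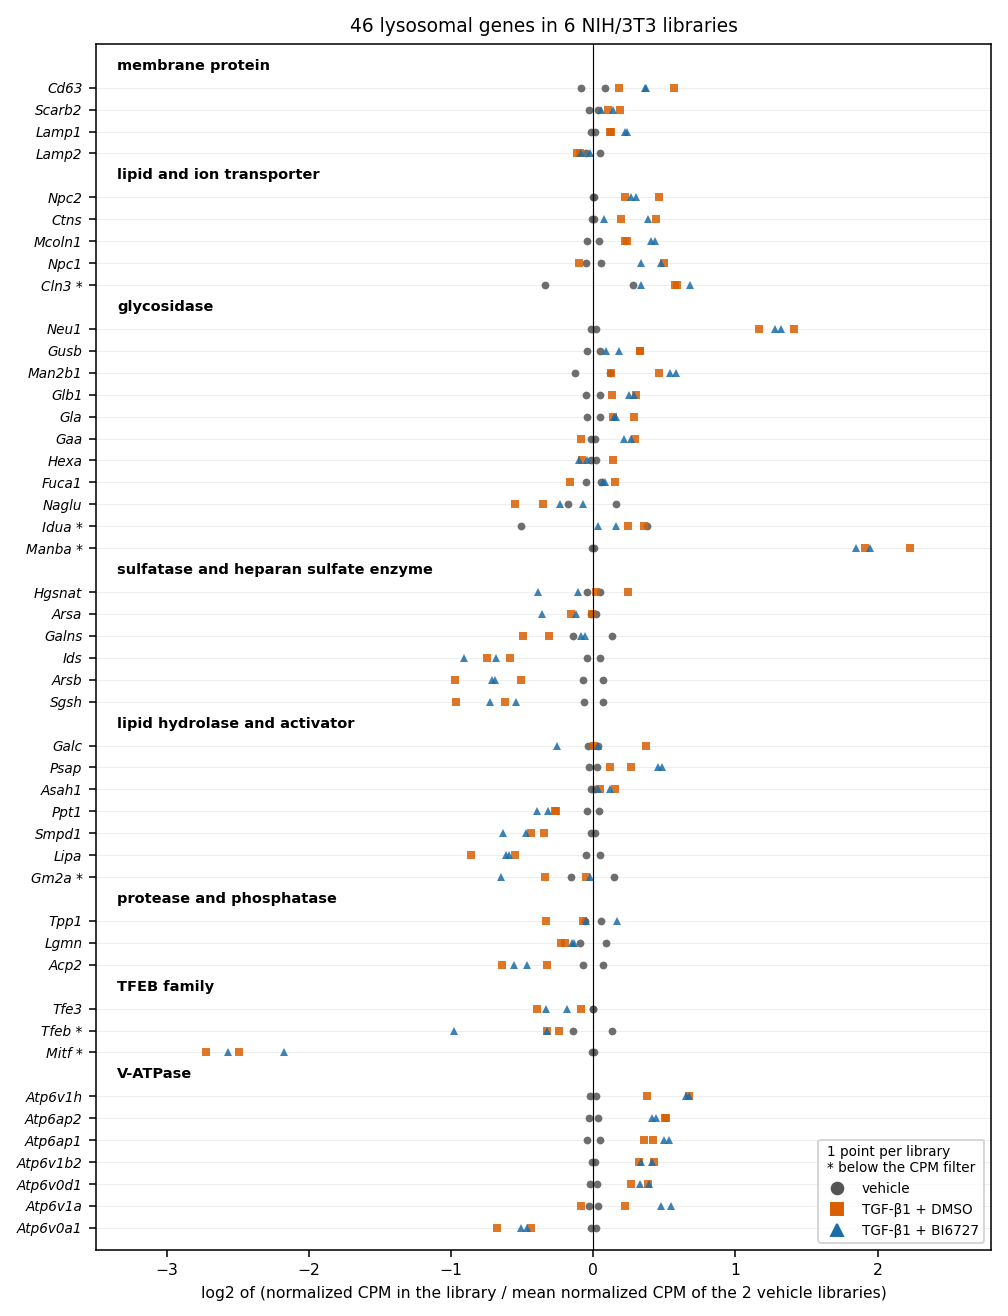
Level of each of the 46 genes in each library, as the log2 ratio to the mean of the 2 vehicle libraries, by role and, within a role, in order of the fold change with DMSO. Neu1 and Manba lie furthest to the right and Mitf furthest to the left, and V-ATPase genes lie mostly to the right of the vehicle libraries. An asterisk marks the 6 genes below the filter on low counts.

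None of the 4 membrane proteins was called by edgeR in either comparison. An unadjusted p-value below 0.05 was reached by 1 of them in each, and DESeq2 called 1, Cd63, with DMSO and 0 with BI6727. Lamp1, one of the most abundant glycoproteins of the lysosomal membrane, was at 995 and 1016 normalized CPM in vehicle, 1093 and 1093 with DMSO, and 1186 and 1173 with BI6727. Its log2 fold change was 0.12 ± 0.10 (SE, adjusted p = 0.421, edgeR) with DMSO and 0.23 ± 0.10 (adjusted p = 0.150) with BI6727, although the groups did not overlap. Lamp2, its partner and the receptor of chaperone-mediated autophagy, had the lowest fold change of the class, with 632 and 589 normalized CPM in vehicle, 571 and 565 with DMSO, and 599 and 575 with BI6727. The tetraspanin Cd63 had the highest fold change of the class, 0.39 ± 0.15 (adjusted p = 0.0960, edgeR) with DMSO. Its levels were 561 and 502 normalized CPM in vehicle, 602 and 789 with DMSO and 687 and 684 with BI6727, and 11.1% of its 50-base windows occur in other transcripts. Scarb2, which carries β-glucocerebrosidase to the lysosome, stayed between 120 and 140 normalized CPM in all 6 libraries.

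Among transporters and channels, Mcoln1 rose with BI6727 against vehicle. It encodes the calcium channel TRPML1, and its levels were 55.8 and 52.7 normalized CPM in vehicle, 64.1 and 63.3 with DMSO, and 72.0 and 73.3 with BI6727. The 3 groups did not overlap. Its log2 fold change was 0.42 ± 0.10 (adjusted p = 0.0206, edgeR) with BI6727 and 0.23 ± 0.10 (adjusted p = 0.132) with DMSO. Between BI6727 and DMSO it was 0.19 ± 0.10 (adjusted p = 0.760, edgeR). Npc2, which hands cholesterol to Npc1 in the lumen, was at 677 and 676 normalized CPM in vehicle, 790 and 933 with DMSO, and 832 and 813 with BI6727. Both treated groups lay above vehicle, but the adjusted p-values were 0.0703 and 0.123 (edgeR). Npc1, the membrane partner in cholesterol export, differed most between the DMSO libraries, at 64.4 and 42.5 normalized CPM, which span the vehicle values of 43.9 and 47.3. Its log2 fold change with DMSO, 0.23 ± 0.19 (adjusted p = 0.409, edgeR), was the lowest of the class. Ctns, the cystine exporter, was at 37.2 and 37.6 normalized CPM in vehicle and at 39.4 to 50.9 in the treated libraries. Cln3, the gene of juvenile Batten disease, stayed between 3.69 and 7.49 normalized CPM and was not called in the second fit (adjusted p = 0.134 with DMSO, edgeR).

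The glycosidases held the largest change among the 40 genes tested. Neu1, the lysosomal sialidase (chr17:34931253-34935953 in mm10, plus strand, counted over its exons), was at 52.6 and 51.3 normalized CPM in vehicle, 117 and 138 with DMSO, and 126 and 129 with BI6727. Every treated library lay above both vehicle libraries. Its mean was 51.9 ± 0.896 (SD, n = 2) in vehicle, 127 ± 15.1 with DMSO and 128 ± 2.44 with BI6727. The rise was 2.45-fold with DMSO (log2 fold change 1.29 ± 0.11, adjusted p = 0.000355, edgeR) and 2.46-fold with BI6727 (1.30 ± 0.11, adjusted p = 0.000316). With any 1 library left out, the log2 fold change stayed between 1.18 and 1.41 with DMSO, and the highest adjusted p-value was 0.0153.

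Gusb, the β-glucuronidase often used as a reference gene, rose with DMSO, from 113 and 120 to 146 and 146 normalized CPM, and was at 124 and 132 with BI6727. The log2 fold change was 0.33 ± 0.09 (adjusted p = 0.0406, edgeR) with DMSO and 0.13 ± 0.09 (adjusted p = 0.328) with BI6727. Man2b1, the lysosomal α-mannosidase, rose with BI6727, from 70.2 and 59.0 normalized CPM to 96.6 and 94.1, a log2 fold change of 0.56 ± 0.14 (adjusted p = 0.0278, edgeR). With DMSO it was at 89.0 and 70.5 normalized CPM, the lower of which is close to the higher vehicle library. Manba, the β-mannosidase, was the least expressed of all 46 genes, at 0.675 and 0.683 normalized CPM in vehicle, 2.56 and 3.18 with DMSO, and 2.61 and 2.44 with BI6727. In the second fit, which called 20.9% of its genes with DMSO and 22.0% with BI6727 at an adjusted p-value below 0.05, Manba rose 4.22-fold with DMSO (adjusted p = 0.00430, edgeR) and 3.74-fold with BI6727 (adjusted p = 0.00647). These folds rest on low counts, with 13 counts in vehicle replicate 1.

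The other glycosidases were not called. Naglu, which acts on heparan sulfate, had the lowest fold change of the class. It was at 54.8 and 43.6 normalized CPM in vehicle, 38.4 and 33.6 with DMSO and 46.9 and 41.9 with BI6727, a log2 fold change of -0.45 ± 0.15 with DMSO (adjusted p = 0.0712, edgeR). The acid α-glucosidase Gaa, which degrades glycogen, ran from 209 to 271 normalized CPM, and both of these values came from the DMSO libraries. Glb1, whose β-galactosidase activity serves as a stain for senescent cells, was at 75.6 and 81.0 normalized CPM in vehicle and 85.7 to 96.4 in treated libraries, with an adjusted p-value of 0.163 with DMSO (edgeR). Gla, Hexa and Fuca1 had log2 fold changes between -0.07 and 0.22 in both comparisons. Idua, which cuts iduronic acid from glycosaminoglycans, ran from 4.91 to 9.09 normalized CPM, the values of the vehicle replicates.

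Of the 6 sulfatases and heparan sulfate enzymes, 3 fell in both comparisons at an adjusted p-value below 0.05 and none was called higher. This is 50% of the 6, where 12.0% of all genes tested were lower with DMSO and 13.2% with BI6727. Ids, which removes sulfate from iduronic acid, went from 58.1 and 54.5 normalized CPM in vehicle to 37.4 and 33.5 with DMSO and 30.0 and 35.0 with BI6727. Both treated groups lay below vehicle, and the log2 fold changes were -0.67 ± 0.13 (adjusted p = 0.0111, edgeR) and -0.79 ± 0.13 (adjusted p = 0.00519). Arsb, the sulfatase of dermatan sulfate, was at 49.5 and 45.0 normalized CPM in vehicle, 33.2 and 24.0 with DMSO, and 29.3 and 28.9 with BI6727. It fell by 0.72 and 0.70 on the log2 scale (adjusted p = 0.0217 and 0.0226, edgeR), and 39.9% of its exonic length is overlapped by other genes. Sgsh, the heparan N-sulfatase, was at 15.4 and 16.9 normalized CPM in vehicle, 10.5 and 8.28 with DMSO, and 9.79 and 11.1 with BI6727. It fell by 0.78 and 0.63 on the log2 scale (adjusted p = 0.0174 and 0.0349, edgeR), the first being the largest fall of the class with DMSO. Card14, on the other strand, overlaps 21.6% of the exonic length of Sgsh. Because the strand setting of the counting is not given in the sources used here, how reads from the overlapped stretches enter these values is not known. Arsa and Galns, sulfatases of sulfatide and of keratan sulfate, were not called. Hgsnat, the acetyltransferase that prepares heparan sulfate for further cutting, had the highest fold change of the class with DMSO, 0.14 ± 0.14, and was at 46.6 and 49.7 normalized CPM in vehicle and 48.9 and 57.1 with DMSO.

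Among lipid hydrolases and their activators, Lipa and Smpd1 fell in both comparisons, Ppt1 fell with BI6727 and Psap rose with BI6727. Lipa, the lysosomal acid lipase that frees cholesterol from its esters, was at 87.8 and 82.0 normalized CPM in vehicle, 58.0 and 46.8 with DMSO, and 55.6 and 56.4 with BI6727. Neither treated group overlapped vehicle. The log2 fold changes were -0.70 ± 0.13 (adjusted p = 0.00888, edgeR) and -0.60 ± 0.13 (adjusted p = 0.0141). Smpd1, the acid sphingomyelinase, was at 62.5 and 63.8 normalized CPM in vehicle, 49.5 and 46.5 with DMSO, and 45.4 and 40.6 with BI6727, and fell by 0.39 and 0.55 on the log2 scale (adjusted p = 0.0419 and 0.0121, edgeR). Ppt1, a thioesterase that removes palmitate from proteins, was at 157 and 166 normalized CPM in vehicle, 135 and 134 with DMSO, and 123 and 130 with BI6727. Its adjusted p-values were 0.0719 with DMSO and 0.0278 with BI6727 (edgeR), and all 4 treated libraries lay below vehicle.

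Psap, the most abundant of the 46 transcripts, moved in the other direction. It was at 2183 and 2102 normalized CPM in vehicle, 2572 and 2329 with DMSO, and 2940 and 2997 with BI6727, so the 3 groups did not overlap. The log2 fold change was 0.19 ± 0.13 (adjusted p = 0.300, edgeR) with DMSO and 0.47 ± 0.13 (adjusted p = 0.0357) with BI6727. Psap alone supplied 2969 ± 40.2 (SD, n = 2) of the summed normalized CPM with BI6727 and 2143 ± 57.4 in vehicle. Galc, the galactosylceramidase, had the highest fold change of the class with DMSO, 0.20 ± 0.17 (adjusted p = 0.417, edgeR), where its libraries were at 32.9 and 25.6 normalized CPM against 26.1 and 24.8 in vehicle. The acid ceramidase Asah1 stayed between 185 and 208 normalized CPM. Gm2a, the GM2 activator, ran from 5.55 to 9.61 normalized CPM and was not called in the second fit (adjusted p = 0.642 with DMSO, edgeR).

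The proteases Tpp1 and Lgmn were not called, and the lysosomal acid phosphatase Acp2 fell. Acp2 was at 54.8 and 49.5 normalized CPM in vehicle, 41.5 and 33.5 with DMSO, and 35.3 and 37.7 with BI6727, all 4 treated libraries below vehicle. It fell by 0.48 with DMSO and by 0.51 with BI6727 on the log2 scale (adjusted p = 0.0477 and 0.0358, edgeR), and Ddb2 on the other strand overlaps 12.6% of its exonic length. Tpp1, the tripeptidyl peptidase, stood at a log2 fold change of -0.20 ± 0.13 (adjusted p = 0.295, edgeR) with DMSO, the highest of the class. Its libraries were at 131 and 122 normalized CPM in vehicle, 120 and 101 with DMSO, and 122 and 142 with BI6727. Lgmn, the asparaginyl endopeptidase legumain, was at 146 and 129 normalized CPM in vehicle and 117 to 125 in the treated libraries.

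**Figure D3:**
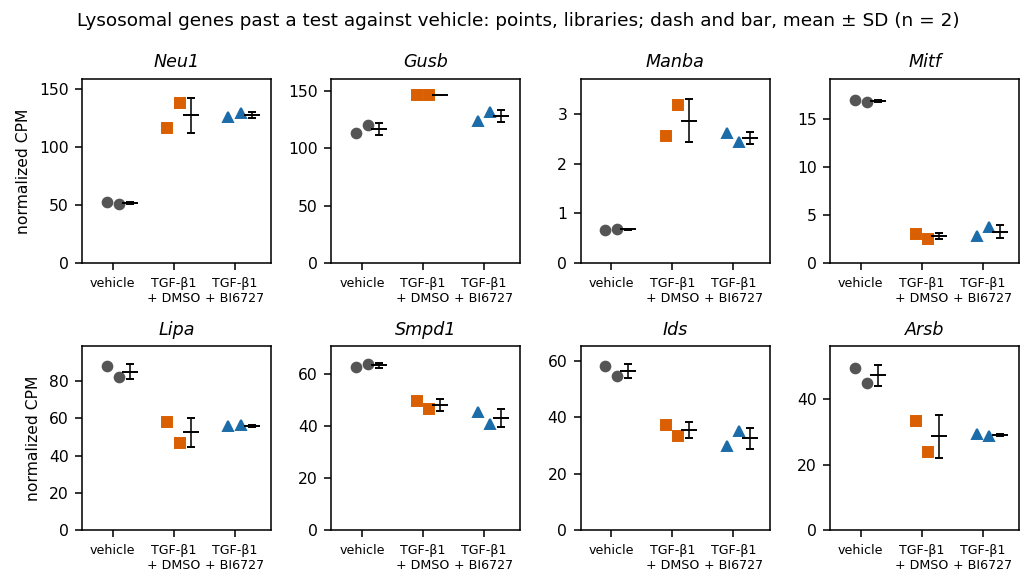
Normalized CPM of 8 genes that passed a test against vehicle, with 1 point per library and the mean ± SD (n = 2) beside each pair, on axes that start at 0. Neu1 and Manba were higher in all 4 treated libraries, Mitf, Lipa, Smpd1, Ids and Arsb were lower in all 4, and Gusb passed with DMSO only. Manba and Mitf were tested in the second fit.

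In the TFEB family, Mitf fell steeply while Tfeb and Tfe3 were not called. Mitf (chr6:97807052-98021349 in mm10, plus strand), known for its role in melanocytes and osteoclasts, was at 17.0 and 16.8 normalized CPM in vehicle. It was at 2.99 and 2.55 normalized CPM with DMSO and at 2.84 and 3.73 with BI6727, so that the groups lay far apart. In the second fit it fell 6.04-fold with DMSO (log2 fold change -2.59 ± 0.22, adjusted p = 0.000110, edgeR) and 5.04-fold with BI6727 (-2.33 ± 0.21, adjusted p = 0.000159). With any 1 library left out, its log2 fold change with DMSO stayed between -2.72 and -2.46, and the highest adjusted p-value was 0.00458. Tfe3, the most expressed of the 3 per kilobase, was at 83.8 and 83.9 normalized CPM in vehicle, 79.1 and 63.7 with DMSO, and 73.8 and 66.7 with BI6727. Its log2 fold changes were -0.23 ± 0.13 (adjusted p = 0.224, edgeR) and -0.26 ± 0.13 (adjusted p = 0.187), although all treated libraries lay below vehicle. Tfeb was at 11.8 and 9.78 normalized CPM in vehicle, 9.13 and 8.62 with DMSO, and 8.62 and 5.46 with BI6727. Its log2 fold changes in the second fit were -0.27 ± 0.24 (adjusted p = 0.449, edgeR) and -0.61 ± 0.24 (adjusted p = 0.109). Transcript levels do not report where these factors are in the cell, which is how their activity is mainly set.

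Genes with and without the E-box letters were described by the same counts. Of the 11 tested genes with the letters, 1 was higher and 1 lower with DMSO, and 3 were higher and 1 lower with BI6727. Of the 23 tested genes whose windows lack them, 4 were higher and 6 lower with DMSO, and 5 were higher and 7 lower with BI6727. Of all genes, 23.0% and 24.5% were called in these comparisons. The median log2 fold change was 0.12 with the letters and 0.035 without them for DMSO, and 0.23 and 0.063 for BI6727.

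Of the 7 V-ATPase genes, 6 rose in at least 1 comparison and the other fell in both. With DMSO, 5 were higher and 1 lower at an adjusted p-value below 0.05 (85.7% called), where 23.0% of all genes tested were called. With BI6727, 6 were higher and 1 lower (100% called), where 24.5% of all genes were. Their summed level was 1301 and 1289 normalized CPM in vehicle, 1662 and 1645 with DMSO, and 1745 and 1779 with BI6727. Atp6v1h, the regulatory H subunit of the V1 sector, was at 175 and 170 normalized CPM in vehicle, 224 and 274 with DMSO, and 270 and 274 with BI6727. It had the highest fold change of the class, 0.53 ± 0.12 (adjusted p = 0.0167, edgeR) and 0.66 ± 0.12 (adjusted p = 0.00677) on the log2 scale. Atp6v1b2, the B subunit of the catalytic ring, was at 226 and 228 normalized CPM in vehicle, 305 and 284 with DMSO, and 286 and 302 with BI6727, with log2 fold changes of 0.37 in both (adjusted p = 0.0260 and 0.0251). Atp6v1a, the A subunit that binds ATP, was at 149 and 156 normalized CPM in vehicle, 178 and 144 with DMSO, and 212 and 223 with BI6727. The DMSO libraries straddled vehicle (log2 fold change 0.08 ± 0.12, adjusted p = 0.653, edgeR), and those with BI6727 lay above it (0.51 ± 0.12, adjusted p = 0.0206).

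The V0 genes moved in opposite directions. Atp6v0d1, which joins the sectors, was at 133 and 129 normalized CPM in vehicle, 157 and 171 with DMSO, and 164 and 172 with BI6727, and rose by 0.33 and 0.36 on the log2 scale (adjusted p = 0.0440 and 0.0300, edgeR). Atp6v0a1, one of the alternative a subunits that line the proton path, was at 64.1 and 65.6 normalized CPM in vehicle, 47.9 and 40.5 with DMSO, and 45.7 and 46.9 with BI6727. It fell by 0.55 and 0.49 on the log2 scale (adjusted p = 0.0165 and 0.0244, edgeR), and its treated libraries did not overlap vehicle. Both accessory subunits rose. Atp6ap1, needed for assembly of the pump, went from 353 and 331 normalized CPM to 458 and 439 with DMSO and 493 and 482 with BI6727 (adjusted p = 0.0247 and 0.00846, edgeR). Atp6ap2, also known as the prorenin receptor, went from 201 and 210 normalized CPM to 291 and 293 with DMSO and 273 and 278 with BI6727 (adjusted p = 0.00684 and 0.0128).

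**Figure D4:**
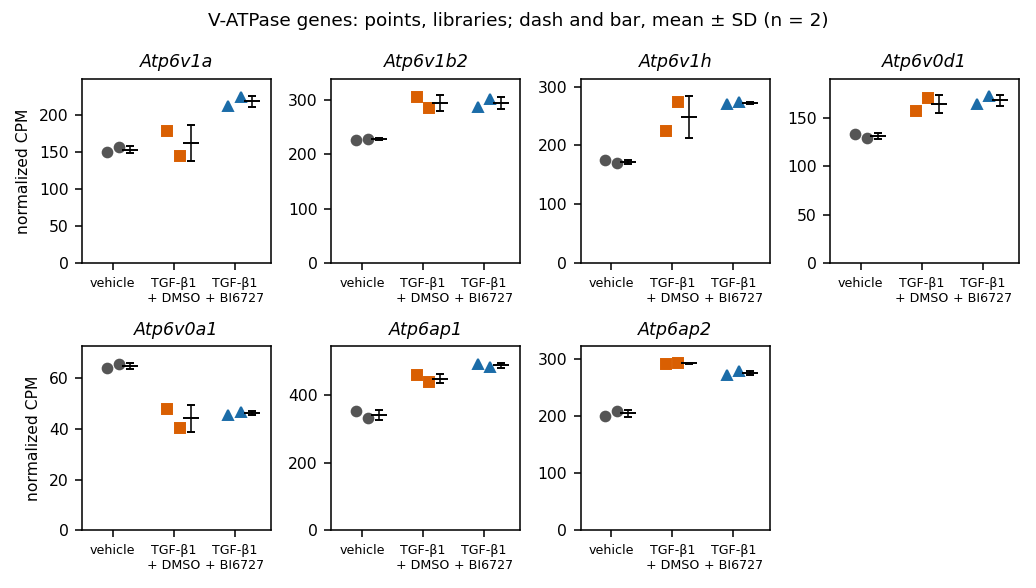
Normalized CPM of the 7 V-ATPase genes, with 1 point per library and the mean ± SD (n = 2) beside each pair, on axes that start at 0. The treated libraries lay above vehicle for Atp6v1b2, Atp6v1h, Atp6v0d1, Atp6ap1 and Atp6ap2 and below it for Atp6v0a1, and Atp6v1a was above vehicle with BI6727 only.

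The V-ATPase counts were similar with either DMSO library left out, and fell with a library of another group left out. With DMSO against vehicle, 5 genes were higher and 1 lower without DMSO replicate 1, and 6 were higher and 1 lower without DMSO replicate 2, in fits that called 59.6% and 38.7% of all genes against 23.0% with all libraries. With a vehicle library left out, all V-ATPase calls were lost, and with a BI6727 library left out most were. The share of all genes called also fell in these fits, as given above, so the fall was not particular to V-ATPase genes. With any 1 library left out, the log2 fold change of Atp6v1h stayed between 0.39 and 0.67 with DMSO and between 0.64 and 0.68 with BI6727. That of Atp6v0a1 stayed between -0.68 and -0.43 with DMSO and between -0.51 and -0.47 with BI6727.

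The remaining subunits were read from a list of 17, of which 9 passed the filter. Of these 9, 7 were higher and none lower with DMSO, and 8 were higher and none lower with BI6727. Of all 16 tested V-ATPase genes, 12 were higher and 1 lower with DMSO, and 14 were higher and 1 lower with BI6727. These are 81.25% and 93.75% of the 16, where 23.0% and 24.5% of all genes were called. Atp6v1g1, a subunit of the peripheral stalk, was at 298 and 305 normalized CPM in vehicle, 954 and 1247 with DMSO, and 1263 and 1160 with BI6727. Its log2 fold changes were 1.87 ± 0.15 (adjusted p = 0.000283, edgeR) and 2.01 ± 0.15 (adjusted p = 0.000188), and 19.2% of its 50-base windows also occur in other transcripts. Atp6v0b, of the proton-carrying ring, was at 259 and 244 normalized CPM in vehicle, 421 and 648 with DMSO, and 558 and 531 with BI6727, with log2 fold changes of 1.09 ± 0.19 (adjusted p = 0.00736, edgeR) and 1.12 ± 0.19 (adjusted p = 0.00616). Tcirg1, the a subunit alternative to Atp6v0a1, was at 94.9 ± 0.235 normalized CPM (SD, n = 2) in vehicle, 174 and 145 with DMSO, and 189 and 189 with BI6727. It rose by 0.75 and 1.00 on the log2 scale (adjusted p = 0.00366 and 0.000977, edgeR), while Atp6v0a1 fell. Atp6v0a2, the third a subunit, was not called and ran from 75.8 to 103 normalized CPM. Of the 8 subunits that did not pass the filter, Atp6v1b1, Atp6v1c2, Atp6v1e2 and Atp6v0d2 were not in the second fit either. That fit called Atp6v0a4 and Atp6v0e2 and did not call Atp6v1g2 or Atp6v0c. Of all its genes, 20.9% were called with DMSO and 22.0% with BI6727. Atp6v0a4, the remaining a subunit, was at 2.39 and 1.64 normalized CPM in vehicle, 6.71 and 5.68 with DMSO, and 4.23 and 3.89 with BI6727, and it rose by 1.64 and 1.03 on the log2 scale (adjusted p = 0.00407 and 0.0311, edgeR). Atp6v0e2, an alternative e subunit, was at 12.7 and 10.5 normalized CPM in vehicle, 5.46 and 7.80 with DMSO, and 8.07 and 8.36 with BI6727. It fell with DMSO (log2 fold change -0.80, adjusted p = 0.0323, edgeR) and was not called with BI6727 (-0.48, adjusted p = 0.149).

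Other lists related to the lysosome were counted in edgeR at an adjusted p-value below 0.05, where 23.0% of all genes were called with DMSO and 24.5% with BI6727. The shares of the membrane, autophagy, mTORC1 and fibroblast lists with DMSO, 30.8%, 30.8%, 17.6% and 22.2%, lay near that of all genes. With BI6727 these shares were 23.1%, 26.9%, 0% and 44.4%. Those of the hydrolase, cathepsin and mannose 6-phosphate sorting lists were 44.4%, 50% and 0% in each comparison. Among 13 tested membrane genes outside the 46, 3 were higher and 1 lower with DMSO, and 2 were higher and 1 lower with BI6727. Of 18 tested hydrolases outside the 46, 5 were higher and 3 lower in each comparison, not all of them the same genes. Of 8 tested cathepsins, 4 were higher and none lower in each comparison, and Ctsd, Ctsf and Ctsw were higher in both, Ctsk with DMSO and Ctsa with BI6727. None of 14 tested genes of mannose 6-phosphate sorting, which delivers hydrolases to the lysosome, was called by edgeR in either. Of these, 3 had an unadjusted p-value below 0.05 in each comparison, and DESeq2 called 0 with DMSO and 2 with BI6727, Gnptg and Igf2r. Of 17 tested genes of mTORC1 and the Ragulator, 3 were higher with DMSO and none with BI6727, where 1 had an unadjusted p-value below 0.05 and DESeq2 called 0. Of 26 tested autophagy genes, 3 were higher and 5 lower with DMSO, and 6 were higher and 1 lower with BI6727. Among 9 tested fibroblast markers, 2 were lower with DMSO and 4 with BI6727, and none was higher by edgeR, whereas DESeq2 called 3 higher and 4 lower with DMSO.

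The third comparison, BI6727 against DMSO under TGF-β1, asks whether these genes differ with the PLK1 inhibitor in cells given the cytokine. No library held BI6727 without TGF-β1. A change in the response to the cytokine and an effect of the inhibitor apart from it therefore cannot be told apart. None of the 40 genes was called at either threshold by edgeR, where 0% of all 9518 genes were, and none by DESeq2. Before adjustment, 2 of the 40 had a p-value below 0.05, where 6.68% of all genes did. These were Atp6v1a, higher with BI6727 by 0.43 ± 0.12 on the log2 scale (adjusted p = 0.597, edgeR), and Hgsnat, at -0.38 ± 0.14 (adjusted p = 0.706). The Hgsnat libraries were at 48.9 and 57.1 normalized CPM with DMSO and at 36.8 and 44.7 with BI6727. The smallest adjusted p-value of the 40 was that of Atp6v1a. The groups did not overlap in 16 genes (40%), 11 higher and 5 lower, where this held for 34.1% of all genes. The median log2 fold change was 0.028, and that of all genes was -0.0028.

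The intervals show what size of difference the libraries could have hidden if all groups vary alike. The fit takes a single spread per gene over all 6 libraries. Because the DMSO libraries differed most from each other, the intervals may be too narrow for this comparison. All 40 of the 95% intervals lay within 1 log2 unit of 0, and their median half-width was 0.277. For Neu1 the interval ran from -0.25 to 0.26 around a log2 fold change of 0.0039. That of Atp6v1b2 ran from -0.22 to 0.21, and that of Atp6ap2 from -0.29 to 0.12. For Psap it ran from -0.02 to 0.58 around 0.28. Manba and Mitf, in the second fit, had log2 fold changes of -0.17 ± 0.31 and 0.26 ± 0.23 (adjusted p = 0.924 and 0.848, edgeR). The p-values do not show that the lysosomal genes are the same with and without BI6727.

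**Figure D5:**
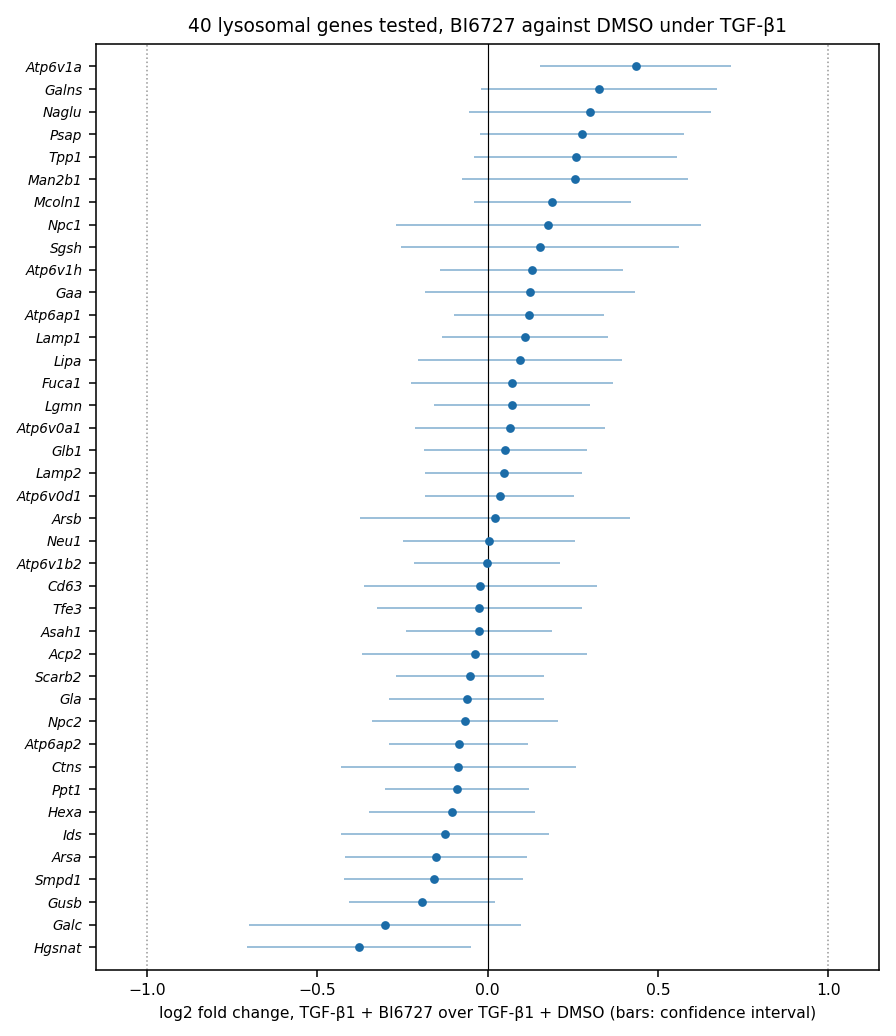
Log2 fold change of the 40 lysosomal genes tested, TGF-β1 with BI6727 over TGF-β1 with DMSO, with 95% intervals. The dotted lines mark a log2 fold change of -1 and 1. No interval reaches either line, and those of Atp6v1a and Hgsnat do not include 0.

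This count rested on the DMSO libraries that stood apart. Without DMSO replicate 1, 8 of the 40 genes were higher with BI6727 at an adjusted p-value below 0.05 and 2 were lower, 31.7% of all genes being called in that fit. The genes higher were Atp6v1a, Gaa, Galns, Man2b1, Naglu, Npc1, Psap and Tpp1, and those lower were Hexa and Hgsnat. Without DMSO replicate 2, 2 were higher, Atp6v1a and Atp6v1h, and none lower, 6.78% of all genes being called. In both fits the share of the 40 genes called was no higher than that of all genes. The lone DMSO library is assumed there to vary like those of the other groups, which differed less between replicates. These calls therefore do not show that a difference recurs. With a library left out, the log2 fold change of Atp6v1a ranged from 0.28 to 0.60.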

How the data were processed

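Total RNA depleted of rRNA was sequenced in 6 NIH/3T3 libraries. The authors aligned reads to mm10 with Subjunc (Subread 1.6.4) and used featureCounts with the Gencode M20 annotation, and the values they deposited are raw counts per gene. The strand setting is not given in the sources used here. Samples were grouped by their labels. Library totals were 18362378 to 24452153 counts. Taken over all genes, error from counting alone is small beside that between replicates, but this need not hold at low counts such as those of Manba.

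The 46 genes, their roles and the other lists were chosen with earlier results of these data known. All symbols of the lists were found by gene identifier (54723 of 54752 identifiers had a symbol).

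In R 4.3.3, genes that reached 10 CPM in more than 3 libraries were fitted with edgeR 4.0.16 (TMM scaling, quasi-likelihood test, all 6 libraries, no covariate, 3 residual degrees of freedom), and p-values were adjusted by Benjamini-Hochberg over all genes of the fit. The study's rule (adjusted p-value below 0.01, fold above 2) and an adjusted p-value below 0.05 were used. The SE was the size of the log2 fold change divided by the square root of F, and 95% intervals used the moderated degrees of freedom. The fit was tested on simulated data. Members called in a comparison, the highest and lowest of each role class and the TFEB family are given in full, and other genes only from lists with calls. Atp6v0a2, Atp6v0a4, Atp6v0c, Atp6v0e2, Atp6v1g2, Tcirg1, Gnptg, Igf2r, Lum and the cathepsins were named after their values were seen.

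Alternatives were DESeq2 1.42.0, its size factors, other filters, a fit of only the groups compared, a block for the replicate number, offsets for each library's trend on gene length, other thresholds, and each library left out. The crossed block and the block with length offsets were added after the data were seen.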

Additional observations from a re-analysis of the deposited data

How the results depend on the processing

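The limits come from 2 libraries a group, an unknown strand setting and DMSO libraries that differ from each other. Under no alternative run did the direction against vehicle change for a gene called in the first fit (edgeR, all 6 libraries, no covariate). The same held for Manba and Mitf. Some calls at an adjusted p-value below 0.05 did not hold throughout. Of 9 alternatives other than leaving out a library, 6 lost the call of Atp6v0d1 with DMSO. The call with DMSO was lost in 4 for Smpd1 and for Acp2, and in 3 for Gusb. With BI6727 at most 2 lost a call, for Ppt1 and for Psap. At an adjusted p-value below 0.01 and a fold above 2, the count was 1 in each comparison with vehicle and 3 with filterByExpr or at least 10 counts in total, which add Manba and Mitf. It ranged from 0 to 1 with a library left out, and was 0 without vehicle replicate 1 or 2. With no minimum fold, 3 genes with DMSO and 4 with BI6727 passed an adjusted p-value below 0.01, and 14 and 18 passed 0.05.

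At an adjusted p-value below 0.05, the counts with DMSO (7 higher, 7 lower) became 2 and 3 with only the 2 groups compared, 12 and 11 with length trend offsets (also with the block), and ranged from 1 to 17 and from 0 to 13 with a library left out. Those with BI6727 (10 higher, 8 lower) became 16 higher with only the 2 groups compared, and ranged from 1 to 16 and from 0 to 11 with a library left out. For BI6727 against DMSO, 0 were called except with a DMSO library left out, where counts ranged from 0 to 8 higher and 0 to 2 lower. The share of all genes called moved with these counts, from 23.0% with DMSO to 13.1%, 33.6% (31.0% with the block) and 5.40% to 59.6% under the same settings, and from 24.5% with BI6727 to 53.9% and 6.49% to 54.1%. The cause of these changes was not tested.

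Same-numbered replicates did not deviate together (r = -0.11, -0.258 and 0.0466 between the 3 pairs of groups). These values cannot exclude a pairing of libraries with different numbers, and the labels give no pairing. With the replicate block, 4 were higher and 5 lower with DMSO, and 7 were higher and 5 lower with BI6727. The crossed block, in which the numbers of the DMSO libraries were swapped, gave 6 higher and 6 lower with DMSO. It gave 9 higher and 8 lower with BI6727.

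Under at least 1 alternative the sign turned for 20 of the 40 genes between BI6727 and DMSO, 6 with DMSO and 5 with BI6727. None of them was called in the first fit, which called no gene at all between BI6727 and DMSO. Some were called under an alternative, such as Gaa and Npc1 with a DMSO library left out. Between BI6727 and DMSO, the log2 fold change of Neu1 was -0.0075 with DESeq2 or its size factors. It was -0.109 without DMSO replicate 1 and -0.0129 without BI6727 replicate 2, in a range from -0.109 to 0.117 with a library left out. For Tfe3 it was 0.140 and 0.0502 without these same libraries, in a range from -0.187 to 0.140.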
